A study of Rattus norvegicus with 19 samples.

Results

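The mitochondrial ribosomal protein genes are described here in cultures of embryonic rat ventral spinal cord, where they were taken as every gene whose symbol begins with Mrpl or Mrps, as spelled there, followed by a digit. This gave 71 of the 15597 genes in the table, 43 with a large-subunit name (Mrpl) and 28 with a small-subunit name (Mrps). All 71 were expressed well enough to be tested, among 11887 tested genes. The lower-case symbols mrpl9, mrpl11 and mrpl24 fall outside that spelling and are given separately.

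The mitochondrial ribosome sits in the mitochondrial matrix and translates the few messenger RNAs of the mitochondrial genome, all of which encode subunits of the respiratory chain and the ATP synthase. Its RNAs come from mitochondrial DNA, but its proteins are encoded by nuclear genes, made in the cytosol and imported. Some of the proteins have a counterpart of the same number in the bacterial ribosome, and many of the others are specific to mitochondria. In neurons the respiratory chain supplies most of the ATP that ion pumping and synaptic transmission use.

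The 19 libraries came from Sprague-Dawley rat cultures of wild-type genotype, prepared at embryonic day 14. In the polyP group (n = 5) the cultures were given long-chain synthetic polyphosphate, a linear polymer of phosphate, at 100 μM for 90 min. In the wtSOD1-ACM group (n = 4) they were given, for 90 min, medium conditioned by spinal cord astrocytes of newborn mice that carry wild-type human SOD1, and in the mutSOD1-ACM group (n = 5) medium from astrocytes of mice transgenic for human SOD1 bearing the G93A change, which causes a familial form of amyotrophic lateral sclerosis. The control group (n = 5) was untreated and received no conditioned medium of any kind, so exposure to astrocyte medium as such is part of both comparisons of conditioned medium with control. The labels do not name the promoter of either transgene, they put the age of a culture at 7 days in vitro in one field and at 4 in another, and they speak of 4 to 5 independent cultures per condition where the series text says quadruplicate. The cultures were wild type for Sod1, and the conditioned media came from another species.

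Levels are FPKM, fragments per kilobase of transcript scaled to the sequencing depth, as the authors deposited them, so levels of different genes can be compared per length. Relative sequencing depth ran from 0.783 to 1.254 of the typical library and the absolute depth is unknown. A division into 2 sets of libraries was found after the data were examined, with the myelin gene Mbp at 169 to 372 FPKM in the 11 libraries of set 1 and 6.54 to 9.62 FPKM in the 8 libraries of set 2. Set 1 holds 3 libraries each of polyP, mutSOD1-ACM and control and 2 of wtSOD1-ACM, and set 2 holds 2 of each group. No batch is named in the labels, and neither set is a group of the study. Neuron markers summed to 1372 to 1794 FPKM in polyP and 1004 to 1649 FPKM in control libraries, and the 8 motor neuron markers to only 11.0 to 16.9 FPKM over all groups' libraries, with 3 of the 8 expressed enough to be tested. In these bulk samples, fewer cells of a type and less RNA per cell cannot be told apart.

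Over all 19 libraries the mean level of a mitochondrial ribosomal protein gene ran from 5.80 to 97.8 FPKM, with a median of 27.8 FPKM. Mrpl17, a large-subunit protein with a bacterial counterpart, had the highest level. Its level was 108, 111, 104, 119 and 116 FPKM in the polyP libraries, 91.6, 93.3, 91.8 and 93.5 FPKM in wtSOD1-ACM, 98.3, 96.0, 92.6, 93.6 and 97.0 FPKM in mutSOD1-ACM and 91.2, 81.5, 92.5, 89.2 and 97.7 FPKM in control. Each polyP library lay above every library of the other 3 groups, and those groups overlapped. Mrpl20, Mrpl54, Mrpl27 and Mrps21 were next, with control means of 59.6 ± 5.24, 57.8 ± 3.02, 56.1 ± 6.73 and 54.3 ± 5.05 FPKM (SD, n = 5), and their spreads overlap. Mrps28, Mrpl40 and Mrpl50 were lowest, at 5.56 ± 0.922, 5.79 ± 0.495 and 6.99 ± 0.720 FPKM in control cultures.

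The summed level of the 71 genes was 2337, 2409, 2171, 2569 and 2638 FPKM in the polyP libraries, 1900, 1890, 2081 and 2025 FPKM in wtSOD1-ACM, 2014, 2099, 1913, 2164 and 2176 FPKM in mutSOD1-ACM and 1982, 1729, 1956, 1997 and 2223 FPKM in control. Of the polyP libraries, 4 were above every other library, and polyP replicate 3 lay below mutSOD1-ACM replicate 5 and control replicate 5. As a share of the summed FPKM of all genes, the 71 genes made up 0.482 ± 0.0257% in polyP, 0.422 ± 0.0201% in wtSOD1-ACM, 0.435 ± 0.0217% in mutSOD1-ACM and 0.426 ± 0.0280% in control (SD over libraries). The sum over all genes was itself higher in polyP, at 502342 ± 12154 FPKM, against 464188 ± 13827 FPKM in control.

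**Figure D1:**
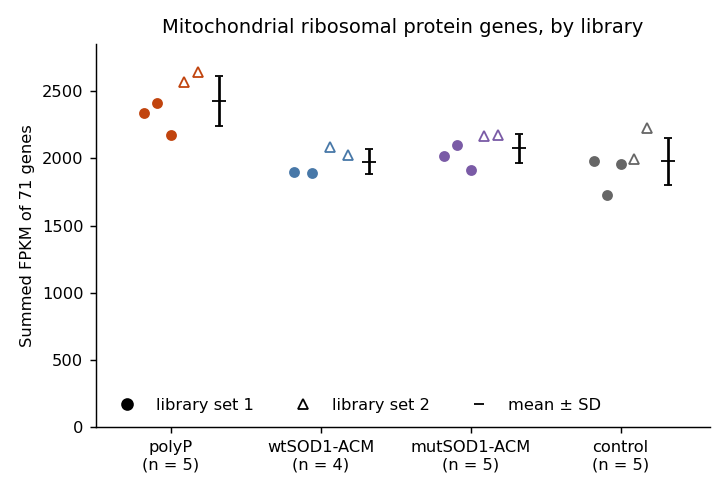
Summed FPKM of the 71 mitochondrial ribosomal protein genes (vertical axis, from 0) in each library of the 4 groups. Filled circles are libraries of set 1, open triangles libraries of set 2, and bars the group mean ± SD. The polyP libraries lie between 2171 and 2638 FPKM, and within each group the set 2 libraries are the highest.

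The genes moved together between libraries of a group. After each group's mean was taken away, the pairwise Pearson correlation of the genes' log2 levels over the 19 libraries had a median of 0.514 and quartiles of 0.281 and 0.67, a description of genes that share libraries and depth. Part of this followed the sets. Of the 71 genes, 66 were higher in set 2 than in set 1 in polyP, 56 in wtSOD1-ACM, 49 in mutSOD1-ACM and 63 in control, with median log2 differences of 0.14, 0.09, 0.08 and 0.12.

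The first question is what polyphosphate did to these genes against untreated cultures. Of the 71 genes, 48 rose in polyP and 0 fell, while 23.0% of all tested genes rose and 8.77% fell (limma, Benjamini-Hochberg adjusted p under 0.05 over all tested genes). The rise was small and broad. All 71 log2 changes were above 0, from 0.03 to 0.51, with a median of 0.31 against 0.04 for all tested genes, and the middle 50% lay between 0.22 and 0.37. Of all 11887 tested genes 6625 were above 0. For 32 of the 71 genes the lowest polyP library was above the highest control library, which held for 14.6% of tested genes, and for 0 of the 71 it was the other way round, against 4.31%.

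The sum over all genes differs between these groups, so the call depends on scaling. With every library scaled to the same summed FPKM, 37 of the 71 genes rose and 0 fell, the calls over all tested genes were 1404 up and 1667 down in place of 2736 and 1043, the median of all genes moved by -0.10 and the median of the 71 became 0.20. With median-of-ratios scaling 43 of the 71 rose, beside 1912 up and 1474 down over all genes. Relative to the median of all tested genes, the median of the 71 stood at 0.27 as deposited, 0.26 with equal sums, 0.27 with median-of-ratios scaling and 0.24 with quantile normalization. Within set 1 alone 42 genes rose, beside 15.3% of tested genes, with a median of 0.29, and within set 2 alone 53 rose, beside 28.1% of tested genes, with a median of 0.29. Of the 71 changes, 65 were above 0 with equal sums, 69 with median-of-ratios scaling, 70 with quantile normalization and 69 within set 2.

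**Figure D2:**
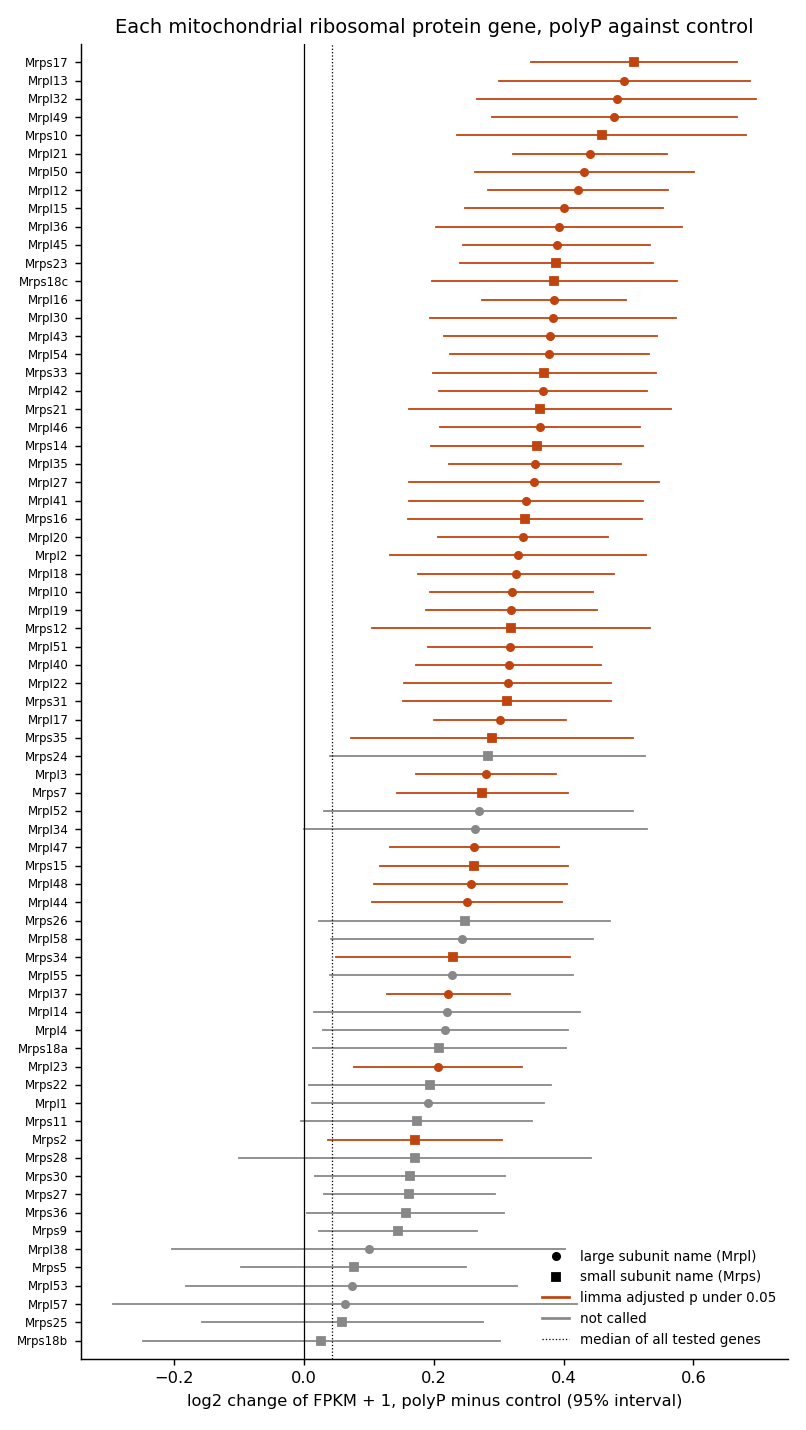
Log2 change of FPKM + 1, polyP minus control, with its 95% interval (horizontal axis), for each of the 71 genes (rows, ordered by change). Circles carry large-subunit and squares small-subunit names, red marks a limma adjusted p under 0.05, and the dotted line is the median of all tested genes. The points run from 0.03 for Mrps18b to 0.51 for Mrps17, and all lie right of 0.

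Mrps17, a small-subunit protein with a bacterial counterpart, rose most. Its level was 24.1, 23.9, 21.8, 23.8 and 25.7 FPKM in polyP and 17.7, 14.5, 15.8, 14.9 and 19.9 FPKM in control. The groups did not overlap, and the log2 change was 0.51 with an SE of 0.08 (limma adjusted p = 0.00017). Mrps10, the counterpart of bacterial S10, averaged 26.2 ± 3.64 FPKM in polyP and 18.8 ± 2.91 FPKM in control (SD, n = 5 each) and rose by 0.46 (limma adjusted p = 0.00312). Mrps10 was chosen after its values were seen. In polyP replicate 3 it stood at 19.9 FPKM, inside the control range.

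Among the large-subunit genes, Mrpl13 had 29.8, 35.0, 31.8, 32.8 and 37.9 FPKM in polyP and 24.6, 20.8, 23.9, 20.3 and 28.1 FPKM in control. Every polyP library was above every control library, and the log2 change was 0.49 with an SE of 0.09 (limma adjusted p = 0.000671). Mrpl32, a protein known from yeast and mouse to be matured by the m-AAA protease of the inner membrane before it joins the ribosome, had 30.3, 32.1, 24.3, 27.9 and 30.0 FPKM in polyP and 20.7, 15.7, 19.6, 22.9 and 23.8 FPKM in control. Its lowest polyP library was just above its highest control library, and the log2 change was 0.48 with an SE of 0.10 (limma adjusted p = 0.00177). Mrpl49, specific to mitochondria, averaged 51.1 ± 4.65 FPKM in polyP and 36.5 ± 4.82 FPKM in control, a log2 change of 0.48 (limma adjusted p = 0.000733).

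Mrpl21, the counterpart of bacterial L21, had the smallest adjusted p of the 71. It had 31.5, 33.3, 29.8, 32.3 and 32.7 FPKM in polyP and 25.2, 22.1, 21.3, 22.1 and 25.8 FPKM in control, a log2 change of 0.44 with an SE of 0.06 (limma adjusted p = 0.000104). The groups did not overlap, and each lay within a narrow range. Mrpl50, one of the 3 genes with the lowest levels, averaged 9.78 ± 0.962 FPKM in polyP and 6.99 ± 0.720 FPKM in control, a log2 change of 0.43 (limma adjusted p = 0.000672). Mrpl12, the counterpart of bacterial L7/L12, which in human mitochondria also binds the mitochondrial RNA polymerase, had 50.1, 47.3, 41.6, 49.0 and 52.0 FPKM in polyP and 37.2, 30.2, 36.5, 35.2 and 38.9 FPKM in control. The groups did not overlap, and the log2 change was 0.42 (limma adjusted p = 0.000222).

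The highly expressed genes rose as well. Mrpl17 averaged 112 ± 6.03 FPKM in polyP and 90.4 ± 5.90 FPKM in control, a log2 change of 0.30 (limma adjusted p = 0.000251). The log2 changes of Mrpl20, Mrpl54, Mrpl27 and Mrps21 were 0.34, 0.38, 0.35 and 0.36, with limma adjusted p of 0.000643, 0.000871, 0.00651 and 0.00758. Mrpl27 is the counterpart of bacterial L27, which reaches towards the peptidyl transferase centre. At the low end, Mrpl40 rose by 0.32 (limma adjusted p = 0.00188) and Mrps28 did not pass the test, with 6.35 ± 0.537 FPKM in polyP and 5.56 ± 0.922 FPKM in control. Across the 71 genes, the change and the mean level had a Spearman correlation of -0.158, given as a description.

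By name, 33 of the 43 large-subunit genes and 15 of the 28 small-subunit genes rose, with median log2 changes of 0.32 and 0.25. Of the 38 genes numbered as their bacterial counterparts (L36 or lower, S21 or lower), 29 rose, with a median of 0.32, and of the 33 genes with higher numbers 19 rose, with a median of 0.26. Among large-subunit genes 19 of 23 lower-numbered and 14 of 20 higher-numbered genes rose. Among small-subunit genes 10 of 15 lower-numbered and 5 of 13 higher-numbered genes rose. Mrps18a, Mrps30 and Mrps36 count as small-subunit genes here by name only, since their proteins are placed elsewhere, as given below. None of them passed the test, so the split by name lowers the small-subunit share. The division by number was chosen after values were seen, and the differences between these groups were not tested. A higher number alone does not show that a protein is specific to mitochondria, so that class may hold proteins with a bacterial counterpart.

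The S18 family and a few names of uncertain place were looked at whatever their result. Mammals have 3 homologues of the bacterial S18 protein, of which those encoded by Mrps18b and Mrps18c sit in the small subunit and that encoded by Mrps18a, despite its name, in the large subunit. Mrps18c had 24.6, 24.4, 20.5, 25.7 and 26.2 FPKM in polyP and 20.8, 15.4, 16.9, 17.3 and 21.9 FPKM in control. It rose by 0.39 (limma adjusted p = 0.00328), although polyP replicate 3 lay within the control range. Mrps18a had 52.9, 52.5, 49.5, 57.0 and 66.4 FPKM in polyP and 46.7, 43.7, 43.9, 51.5 and 54.0 FPKM in control, a log2 change of 0.21 that did not pass (limma adjusted p = 0.0946). The groups overlapped, and the last 2 libraries of each group, those of set 2, were the highest. With the set of libraries as a term of the fit, the change of Mrps18a did pass at the same size of 0.21.

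Mrps18b had the smallest change of the 71 genes. Its level was 37.4, 38.7, 36.4, 44.9 and 49.2 FPKM in polyP and 33.1, 38.1, 37.3, 46.7 and 48.2 FPKM in control. The libraries split by set and not by treatment, and the log2 change was 0.03, with a 95% interval from -0.25 to 0.30 (limma adjusted p = 0.892). Its sign turned with equal sums, with median-of-ratios scaling, with quantile normalization, within set 2 and without single libraries. Mrps30, which also sits in the large subunit in mammalian structures, averaged 29.8 ± 2.30 FPKM in polyP and 26.6 ± 2.61 FPKM in control, a log2 change of 0.16 (limma adjusted p = 0.0818). Mrps36, which the reference annotation calls Kgd4 and whose protein is now placed in the 2-oxoglutarate dehydrogenase complex, averaged 33.4 ± 1.74 FPKM in polyP and 29.9 ± 2.79 FPKM in control, a log2 change of 0.16 (limma adjusted p = 0.107).

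**Figure D3:**
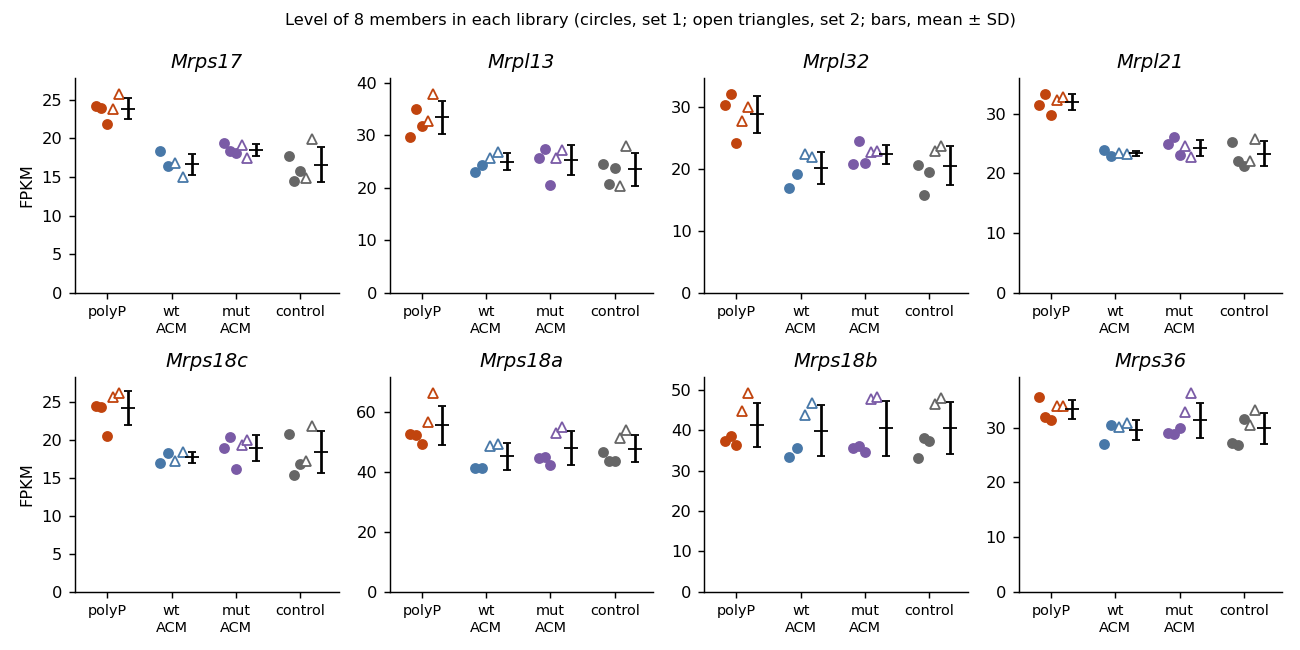
FPKM (vertical axes, each from 0) of Mrps17, Mrpl13, Mrpl32, Mrpl21, Mrps18c, Mrps18a, Mrps18b and Mrps36 in each library of the 4 groups. Circles are set 1, open triangles set 2 and bars the mean ± SD. Mrps17, Mrpl13, Mrpl32 and Mrpl21 separate polyP from control, whereas Mrps18b separates the sets within each group.

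Of the 3 lower-case symbols 1 passed the test. The level of mrpl9 was 36.9 ± 1.94 FPKM in polyP and 28.9 ± 2.57 FPKM in control, a log2 change of 0.35 (limma adjusted p = 0.000315). The log2 changes of mrpl11 and mrpl24 were 0.28 and 0.07, with limma adjusted p of 0.0574 and 0.697.

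Promoter windows of 300 bases, from 250 before to 50 after the annotated start, were at hand from RefSeq (build GRCr8) for 57 of the 71 genes, with 59 windows in all. The ETS-type motif CCGGAAG, the kind of site that GABP binds, or its reverse complement CTTCCGG, was in 33.9% of these windows, against 17.2% of the windows of tested genes and 8.75% of all windows in the table. The NRF1-type motif GCGCATGC, or its reverse complement GCATGCGC, was in 8.47%, against 4.92% of tested genes and 2.47% of all windows. The TATA box TATAAA (reverse complement TTTATA), the E-box CACGTG and the CRE TGACGTCA were in 13.6%, 10.2% and 1.69% of the genes' windows and in 6.96%, 9.22% and 3.3% of those of tested genes. Over all windows in the table their shares were 14.2%, 6.42% and 1.83%. The median G+C content was 56.0% in the genes' windows and 61.0% in those of tested genes. In the 39 windows of genes that rose in polyP the ETS-type motif was in 28.2% and the NRF1-type motif in 10.3%, and in the 20 windows of genes that did not pass these were 45.0% and 5.0%. Windows of cytosolic ribosomal protein genes and of nuclear respiratory chain genes held the ETS-type motif in 30.3% and 30.3%, and the NRF1-type motif in 4.55% and 13.2%. A match is a description of letters and not a bound site. NRF1 and GABP are textbook activators of nuclear genes for mitochondrial proteins.

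The stretch from 150 bases before the start to 10 after it is shown for 4 genes that span the range of change, each 5′ to 3′ on the gene's own strand with the ETS-type and NRF1-type matches in capitals. They are Mrps17 (chr12:32587803-32587962, minus strand) with the largest rise and no match, Mrpl32 (chr17:55260501-55260660, plus strand), which rose and holds a pair of NRF1-type matches, Mrpl17 (chr1:169575690-169575849, minus strand), the most highly expressed, which holds a pair as well, and Mrps18b (chr20:2842856-2843015, plus strand), which has both motifs and the smallest change. A reverse complement that overlaps a marked match is not marked again. Of all 59 windows 5 hold the NRF1-type motif and 20 the ETS-type motif, so these 4 stretches are not typical in their matches.
Mrps17: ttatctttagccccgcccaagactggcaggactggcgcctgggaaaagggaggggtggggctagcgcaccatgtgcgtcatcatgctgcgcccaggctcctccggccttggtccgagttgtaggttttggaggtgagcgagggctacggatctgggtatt
Mrpl32: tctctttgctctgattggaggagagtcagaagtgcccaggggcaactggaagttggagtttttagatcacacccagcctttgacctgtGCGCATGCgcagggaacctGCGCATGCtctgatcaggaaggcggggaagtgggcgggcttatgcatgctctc
Mrpl17: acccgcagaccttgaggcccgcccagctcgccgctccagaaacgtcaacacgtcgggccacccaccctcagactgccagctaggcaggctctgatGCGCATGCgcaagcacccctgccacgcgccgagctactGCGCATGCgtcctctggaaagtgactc
Mrps18b: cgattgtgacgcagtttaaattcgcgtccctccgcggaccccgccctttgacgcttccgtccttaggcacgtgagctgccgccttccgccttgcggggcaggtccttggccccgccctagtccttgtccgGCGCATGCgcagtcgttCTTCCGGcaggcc

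Mrpl46 and Mrps11 lie head to head on chromosome 1, with annotated starts 234 bases apart, so that their windows share 267 bases. The stretch between both starts (chr1:142117030-142117264, plus strand, Mrps11 to the right) is shown because the pair shares it whole.
Mrpl46 to Mrps11: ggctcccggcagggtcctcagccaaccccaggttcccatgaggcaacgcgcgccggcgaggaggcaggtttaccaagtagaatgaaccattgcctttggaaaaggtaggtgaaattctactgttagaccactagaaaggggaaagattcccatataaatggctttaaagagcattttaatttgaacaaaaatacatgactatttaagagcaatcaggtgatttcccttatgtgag
Mrpl46 had 20.9, 23.8, 19.4, 23.9 and 21.8 FPKM in polyP and 17.7, 13.7, 15.9, 18.4 and 18.8 FPKM in control, without overlap, and rose by 0.36 (limma adjusted p = 0.00123). Mrps11 had 37.0, 37.6, 36.1, 46.1 and 46.1 FPKM in polyP and 38.1, 30.7, 34.4, 35.9 and 39.7 FPKM in control. These groups overlapped in the first 3 polyP libraries, and the change of 0.17 did not pass (limma adjusted p = 0.127). Both genes were chosen here for their shared start region, after their values were seen, and the difference between their changes was not tested.

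Other lists of genes for mitochondrial gene expression moved less uniformly. Of the list of mitoribosomal proteins without an Mrp name, 3 of 6 tested rose, with a median of 0.17. This list was written to include Oxa1l, which is not itself a ribosomal protein. Chchd1 had 61.2 ± 3.63 FPKM in polyP and 47.5 ± 7.36 FPKM in control (log2 change 0.37, limma adjusted p = 0.0109), and Gadd45gip1 and Aurkaip1 rose by 0.27 and 0.28. Dap3, a small-subunit GTP-binding protein also known as a death-associated protein, had 32.8 ± 2.25 FPKM in polyP and 33.1 ± 5.32 FPKM in control, and Ptcd3, a small-subunit protein with RNA-binding repeats, had 28.4 ± 2.21 FPKM in polyP and 28.2 ± 3.17 FPKM in control. Both were chosen after their values were seen.

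Of the translation factors 5 of 11 rose, with a median of 0.17. The initiation factor Mtif3 had 16.1 ± 1.06 FPKM in polyP and 13.4 ± 0.722 FPKM in control (log2 change 0.25, limma adjusted p = 0.00226), and the elongation factors Tsfm and Gfm1 rose by 0.26 and 0.17. Of the assembly and ribosomal RNA modification factors 5 of 20 rose, with a median of 0.15, and this share of 25.0% is close to the 23.0% of all tested genes. Gtpbp10, a GTPase of large-subunit assembly, had 9.63, 10.6, 8.89, 9.39 and 10.6 FPKM in polyP and 6.43, 6.43, 6.52, 6.88 and 7.47 FPKM in control. The groups did not overlap, and the log2 change was 0.48 (limma adjusted p = 0.000174). Rbfa, a factor of small-subunit maturation, and Malsu1, one of large-subunit assembly, rose by 0.31 and 0.37.

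Of the genes for mitochondrial transcription and RNA processing 7 of 18 rose, with a median of 0.09. Tfam, which packages mitochondrial DNA and starts its transcription, had 40.5, 42.3, 37.8, 40.5 and 39.6 FPKM in polyP and 29.9, 26.1, 31.2, 29.7 and 32.5 FPKM in control, without overlap (log2 change 0.42, limma adjusted p = 0.000131). Slirp, which stabilises mitochondrial messenger RNAs, and Ssbp1, the mitochondrial single-stranded DNA-binding protein, rose by 0.38 and 0.40. The list of mitochondrial aminoacyl-tRNA synthetases was written to include Gatb, Gatc and Qrsl1, which do not encode synthetases. Of its 17 tested genes 3 rose and 0 fell, with a median of 0.002. These were Pars2, Nars2 and Ears2, with log2 changes of 0.36, 0.27 and 0.18, and 17.6% is below the share of all genes that rose.

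Of 13 regulators of mitochondrial biogenesis 5 rose and 2 fell, with a median of 0.19. Nrf1 had 15.5 ± 0.527 FPKM in polyP and 13.3 ± 0.743 FPKM in control (log2 change 0.20, limma adjusted p = 0.00795), and Gabpa, the DNA-binding subunit of GABP, had 16.9 ± 1.32 FPKM in polyP and 14.4 ± 1.26 FPKM in control (log2 change 0.21, limma adjusted p = 0.0166). Those that fell were Pprc1, a coactivator of the PGC-1 family, which fell by 0.29, and Myc, which fell by 0.24 on the log2 scale. They are named because they were the 2 that fell, after their values were seen. Tfam is also in this list.

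**Figure D4:**
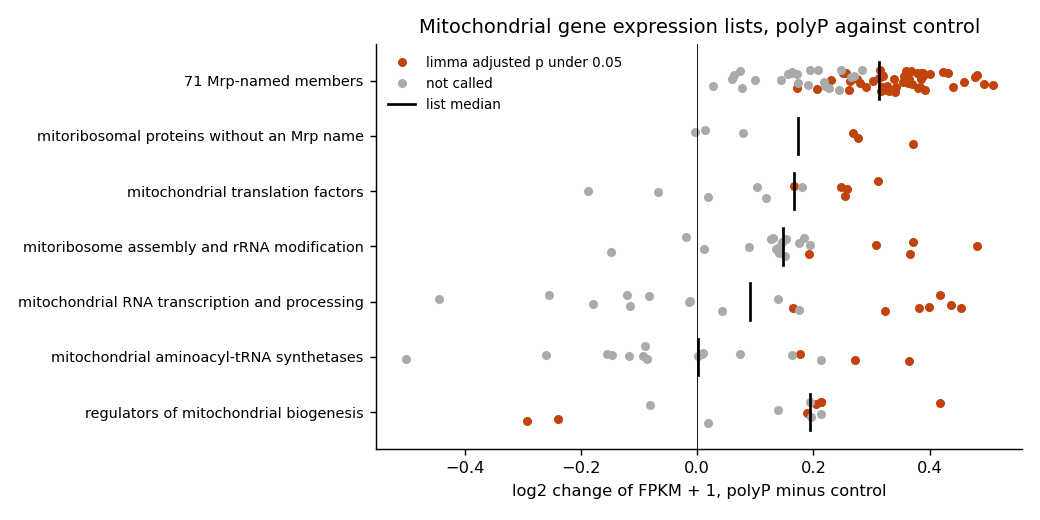
Log2 change of FPKM + 1, polyP minus control (horizontal axis), for each tested gene of the Mrp-named genes and of 6 lists of related genes (rows). Red dots passed limma at an adjusted p under 0.05 and grey dots did not. Black lines are list medians, which run from 0.31 for the 71 genes to 0.002 for the synthetase list.

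The cytosolic ribosomal protein genes rose more often. Of 79 tested, 76 rose in polyP and 0 fell, with a median log2 change of 0.40 against 0.31 for the 71 mitochondrial genes, and 46 of 86 nuclear-encoded respiratory chain genes rose, with a median of 0.23. All 79 cytosolic changes and 81 of the 86 respiratory chain changes were above 0. The 3 groups were not tested against each other. Dividing-cell markers moved with polyP too, at a summed 452 to 534 FPKM in polyP and 310 to 386 FPKM in control libraries, and 6 of 8 rose. Microglia and macrophage markers summed to 68.1 to 215 FPKM in polyP and 64.5 to 677 FPKM in control, and 0 of 12 passed, with a median log2 change of -0.72. Fibroblast markers had 3 of 7 lower and 0 higher, but 2 of the 7 changes were above 0, and the range was -0.49 to 0.68. Endothelial markers had 1 of 3 lower. The 9 astrocyte markers had 1 higher and 1 lower, as did the 12 oligodendrocyte lineage markers, and 0 of 10 neuron markers passed. No marker on these lists was at 0 in every library of a group. The part of any of these in the rise of the 71 genes was not tested.

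**Figure D5:**
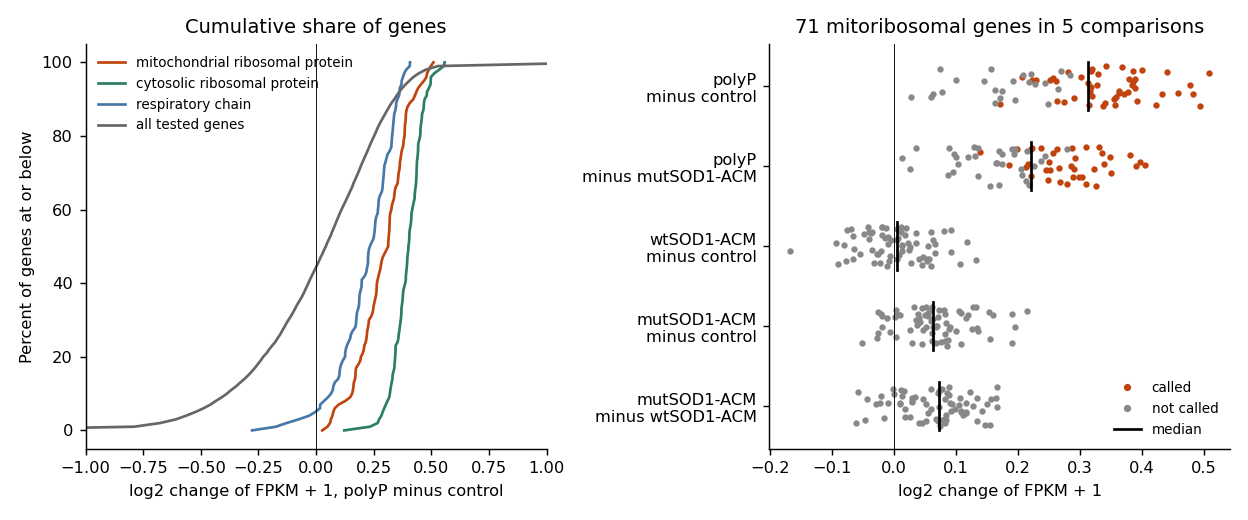
Left, cumulative percent of genes (vertical axis) by log2 change of FPKM + 1, polyP minus control, for the 71 mitoribosomal genes, cytosolic ribosomal protein genes, respiratory chain genes and all tested genes, with the axis limited to -1 to 1. Right, log2 change of each of the 71 genes in 5 comparisons, red where called, with the median as a black line, which stands at 0.31 and 0.22 for polyP and between 0.004 and 0.07 for the comparisons of conditioned media.

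The second question is what the conditioned media did. In wtSOD1-ACM against control 0 of the 71 genes were called, against 0.631% of tested genes, and 0 had an unadjusted p under 0.05. The median log2 change was 0.004, the range -0.17 to 0.13, and 37 of the 71 were above 0. Of all 11887 tested genes 5912 were above 0, with a median of -0.0005, and 442 had an unadjusted p under 0.05 (limma). The 95% intervals of the 71 genes lay within -0.38 and 0.37, and reached a median of 0.179 to either side of the change. Of the 4 genes with the smallest p, Mrps11 had 31.6, 30.4, 34.3 and 30.3 FPKM in wtSOD1-ACM and 38.1, 30.7, 34.4, 35.9 and 39.7 FPKM in control. The groups overlapped, and the log2 change was -0.17 with a 95% interval of -0.36 to 0.02. The log2 changes of Mrps9, Mrps31 and Mrpl19 were -0.09, 0.12 and 0.09, and the smallest adjusted p of the 71 was 1 (limma). Mrps9 is the counterpart of bacterial S9, Mrps31 is specific to mitochondria and Mrpl19 is the counterpart of bacterial L19.

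In mutSOD1-ACM against control 0 of the 71 were called, against 0.0168% of tested genes, and 4 had an unadjusted p under 0.05. The median log2 change was 0.06 with a range of -0.05 to 0.21, and 62 of the 71 were above 0. Of all 11887 tested genes 6137 were above 0, with a median of 0.005, and 426 had an unadjusted p under 0.05 (limma). The related families moved likewise, with 78 of 79 cytosolic ribosomal protein genes above 0 (median 0.11) and 81 of 86 respiratory chain genes (median 0.08). The 95% intervals lay within -0.33 and 0.44. Mrpl19 had 22.0, 21.6, 20.8, 20.2 and 19.3 FPKM in mutSOD1-ACM and 19.5, 17.3, 19.6, 16.4 and 17.9 FPKM in control, where 1 mutSOD1-ACM library fell inside the control range. Its log2 change was 0.19 with a 95% interval of 0.06 to 0.32 (limma adjusted p = 0.966). The other 3 with the smallest p were Mrpl46, Mrpl20 and Mrps17, with log2 changes of 0.19, 0.15 and 0.16.

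In mutSOD1-ACM against wtSOD1-ACM 0 of the 71 were called, against 0.471% of tested genes, and 2 had an unadjusted p under 0.05. The median log2 change was 0.07 with a range of -0.06 to 0.17, and 60 of the 71 were above 0. Of all 11887 tested genes 6202 were above 0, with a median of 0.006, and 599 had an unadjusted p under 0.05 (limma). Cytosolic ribosomal protein genes had 77 of 79 above 0 (median 0.07) and respiratory chain genes 66 of 86 (median 0.04). The 95% intervals lay within -0.35 and 0.43. Mrpl23, the counterpart of bacterial L23, had 42.4, 42.9, 44.1, 44.5 and 37.2 FPKM in mutSOD1-ACM and 38.8, 40.7, 37.0 and 34.6 FPKM in wtSOD1-ACM. Its log2 change was 0.16 (limma adjusted p = 0.84), and mutSOD1-ACM replicate 5 lay within the wtSOD1-ACM range. Mrpl37, Mrps17 and Mrps34 had log2 changes of 0.10, 0.15 and 0.17. Mrpl46 was the 1 gene of the 71 without overlap, with 19.5, 19.7, 19.3, 18.4 and 19.7 FPKM in mutSOD1-ACM and 17.8, 16.9, 17.9 and 17.4 FPKM in wtSOD1-ACM, which held for 1.35% of tested genes in the same direction. Its log2 change was 0.13 (limma adjusted p = 0.998). Within set 1 and within set 2 alone, 0 of the 71 were called in each of these 3 comparisons. A p that misses the threshold does not show that the media acted alike, and the upper bounds of the 95% intervals had medians of 0.18 for wtSOD1-ACM against control, 0.23 for mutSOD1-ACM against control and 0.24 for mutSOD1-ACM against wtSOD1-ACM.

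The third question is whether polyP and mutSOD1-ACM, which the series title asks about together, differed. Both comparisons with control use the same control libraries, so polyP was set against mutSOD1-ACM directly. Of the 71 genes 38 were higher in polyP and 0 lower, against 14.8% higher and 4.9% lower of all tested genes (limma adjusted p under 0.05). All 71 changes were above 0, with a median of 0.22, a range of 0.01 to 0.41 and a median of 0.04 over all genes. Of all 11887 tested genes 6832 were above 0, as were 79 of 79 cytosolic ribosomal protein genes and 80 of 86 respiratory chain genes. For 21 of the 71 the groups did not overlap with polyP higher, which held for 12.3% of tested genes. By name 29 of 43 large-subunit and 9 of 28 small-subunit genes were called. Mrps18a, Mrps30 and Mrps36, small-subunit genes by name only, were among those not called.

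Mrpl15, the counterpart of bacterial L15, had 19.0, 18.3, 16.5, 18.8 and 18.0 FPKM in polyP and 13.7, 13.4, 14.0, 13.2 and 13.2 FPKM in mutSOD1-ACM. Its libraries were tight and apart, and the log2 change was 0.40 with an SE of 0.07 (limma adjusted p = 0.00209). Mrpl13, Mrpl21, Mrps17, Mrps18c and Mrpl43 likewise had no overlap, with log2 changes of 0.39, 0.38, 0.35, 0.34 and 0.34 and limma adjusted p of 0.00803, 0.000714, 0.00519, 0.0143 and 0.00777. Mrpl43 is specific to mitochondria and averaged 50.5 ± 4.41 FPKM in polyP and 39.8 ± 2.64 FPKM in mutSOD1-ACM. Mrps18a, Mrps18b, Mrps30 and Mrps36 did not pass, with log2 changes of 0.21, 0.03, 0.10 and 0.09. The sign turned for Mrps18b with equal sums, median-of-ratios scaling, within set 2 and without single libraries, and for Mrps36 within set 2.

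The count of calls in this comparison depended on the set, on scaling and on single libraries. Within set 1 (3 libraries against 3) 0 of the 71 were called, beside 0.505% of tested genes higher, and 70 changes were above 0, with a median of 0.20. Within set 2 (2 against 2) 45 were called, beside 22.7% of tested genes higher, with a median of 0.25. With equal sums 20 were called, beside 6.62% of tested genes, and with median-of-ratios scaling 19 were called, beside 6.47%, and over all genes the share of calls that were higher moved to 51.3% and 52.0%, against 75.1% as deposited. Without polyP replicate 5 the count was 23, without mutSOD1-ACM replicate 3 it was 24 and without polyP replicate 2 it was 25, out of 71. Calls higher over all 11887 tested genes fell too, to 1280, 1185 and 1173 in that order, from 1760 with every library.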

How the data were processed

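The authors deposited 1 table of FPKM with 2 decimals, per the file headers, and reads were aligned with HISAT to rat build rn6, per the submitters' processing notes. No source used here gives the aligner's version, the FPKM tool, the annotation or how libraries were scaled. The kit enriched poly(A) RNA, per the labels' protocols. Tests used limma 3.58.1 with statmod 1.5.0 (R 4.3.3) on log2(FPKM + 1), which understates changes of low genes. A gene was tested at 1 FPKM or more in at least 4 of 19 libraries. All 4 groups entered 1 fit with trend and robust moderation, and two-sided p-values were adjusted over all tested genes for each of 5 comparisons. The fit was also run on simulated data with independent normal noise for each gene and library. Those data held neither the 2 library sets nor the correlation between genes, so they cannot show how calls behave under either.

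The genes and lists were chosen with earlier results of these data known. Cytosolic ribosomal protein genes are those beginning with Rpl or Rps and a digit; the Rps6k kinases were left out after their values were seen. Genes named are those with the largest changes among called genes without overlap (at most 6 a direction; with under 3 calls, the 4 smallest p), the 5 highest and 3 lowest in level, Mrpl12, Mrps36, Mrps30 and Mrps18a, b and c, and up to 3 per list; other names were picked with their values known, as stated beside them.

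Samples with the same replicate number deviated together in polyP and mutSOD1-ACM (r of 0.688 to 0.764 in all 5 pairs), so these numbers pair there by the data; in the other comparisons some pairs did not. P-values measure spread between libraries, taken as separate cultures on the labels' word. FPKM carry no counts, and relative depth was read from 99 rare genes whose values are whole fragments, within 0.1, in 74.2% of cases.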

Additional observations from a re-analysis of the deposited data

Results flagged for a closer look

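Of 124 groups of 4 or 5 libraries examined for the named genes, 2 had a library far from the rest, and chance marks about 1 in 20. Mrpl13 in mutSOD1-ACM replicate 3 stood at 20.56 FPKM, with the next library at 25.61 FPKM, and without it the log2 change of polyP against mutSOD1-ACM was 0.32 in place of 0.39. Mrpl50 in polyP replicate 3 stood at 8.09 FPKM, with the next at 9.99 FPKM, and without it the change of polyP against control was 0.49 in place of 0.43.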

How the results depend on the processing

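In polyP against control the count of genes that rose ran from 37 to 64, and 0 fell. With equal sums 37 rose, beside 11.8% of tested genes, and the median was 0.20. With the set, the replicate block or 3 library clusters as a term 64 rose, beside 32.7%, 30.2% and 34.7% of tested genes. Leaving out single libraries gave 44 to 56 calls, beside 2322 to 2771 calls higher over all tested genes, and medians of 0.27 to 0.34. In polyP against mutSOD1-ACM the count was 38, beside 14.8% of tested genes higher. It was 20 with equal sums (6.62%), 19 with median-of-ratios scaling (6.47%) and 0 within set 1 (0.505%). With the 3 clusters as a term (added after seeing the data) it was 60 (29.1%), and the replicate block gave 52 (21.6%). Without single libraries it was 23 to 43, beside 1173 to 2008 over all tested genes. It was 25 without polyP replicate 2 and 24 without mutSOD1-ACM replicate 3. The cause was not tested. In the 3 comparisons of conditioned media 0 genes were called under every alternative run, the block included, with medians without single libraries of -0.04 to 0.04 (wtSOD1-ACM against control), 0.02 to 0.11 (mutSOD1-ACM against control) and 0.05 to 0.10 (mutSOD1-ACM against wtSOD1-ACM). Under the block the median over all 71 genes was 0.31 in polyP against control, 0.22 in polyP against mutSOD1-ACM and 0.03, 0.06 and 0.05 in those 3 comparisons. The block joins wtSOD1-ACM replicate 3, of set 2, to control and mutSOD1-ACM libraries of set 1 (r of -0.687 and -0.725). It therefore cannot serve as a check of the 2 comparisons that involve wtSOD1-ACM. All 19 libraries share 1 estimate of the spread in that fit, so the counts of the other comparisons under the block carry this mismatch too.

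Mrps18b turned sign in polyP against control (-0.0845 with equal sums, -0.0339 with median-of-ratios scaling, -0.0151 with quantile normalization, -0.0117 within set 2, -0.0421 to 0.0901 without single libraries) and in polyP against mutSOD1-ACM (-0.0387, -0.0172 and, within set 2, -0.0311, and -0.0295 to 0.101 without single libraries), as did Mrps36 there within set 2 (-0.0253). An alternative by gene length was not run because no length table was at hand. Depth is unknown, so counting error of low FPKM cannot be given.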
